A study of Homo sapiens with 6 samples.

Results

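The genes described here are the collagens, laminins and integrins of A172 cells, a human glioblastoma line: every listed symbol of the form COL with a type and chain number, LAM with A, B or C and a number, or ITG with A or B and a number or one of the letters V, E, L, M and X. The rule used names only and found 80 of 20979 symbols, made up of 43 collagen chains, 12 laminin chains and 25 integrin genes. One of the last, ITGBL1, is an integrin beta-like protein and not a receptor subunit, and the rule does not take ITGA2B or ITGAD. Polyadenylated RNA was measured in 6 libraries of 3 groups, 2 libraries each. One group of cells received a control microRNA, another a duplex of miR-324-5p (called 5p duplex here) and the last one of miR-324-3p.1 (called 3p.1 duplex here). All cells were A172, were transfected with a Lipofectamine reagent, and were harvested 1 day later, so the control cells also carried a transfected small RNA. The 2 duplexes carry opposite arms of one microRNA precursor, and the comparisons ask which messenger RNAs differ with either arm. The libraries of a group are numbered 1 and 2 in the labels, and paired values below are given in that order. Nothing in the labels ties the libraries to separate cultures, so p-values measure the spread between these libraries, which may be technical.

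Collagens are triple helices of 3 alpha chains that build fibrils, networks or filaments. Laminins are cross-shaped trimers of an alpha, a beta and a gamma chain that, with type IV collagen, form the sheet called the basement membrane. Integrins are alpha-beta pairs in the cell membrane that hold cells to both. Normal brain tissue is poor in fibrillar collagen, while cultured mesenchymal-type glioma cells often make much of it. A microRNA lowers messenger RNAs whose 3′ untranslated region (3′UTR) pairs with its seed, bases 2 to 8 counted from its 5′ end.

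The mature arms are shown because their seeds, in capitals, set the letters searched for in the member transcripts. Both sequences are from RefSeq on GRCh38.p14 and lie on the minus strand, miR-324-5p at chr17:7223343-7223364 and miR-324-3p at chr17:7223308-7223330. The 3p arm below is the reference form, since which bases the 3p.1 duplex carried is not stated in the labels.
hsa-miR-324-5p: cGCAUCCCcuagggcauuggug
hsa-miR-324-3p: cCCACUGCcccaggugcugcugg

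A site for the 5p seed reads GGGATGC, with an 8mer adding an A after it and a 7mer-A1 holding GGATGCA in its place. Of the 50 members with a mean of at least 1 TPM (a share of all transcripts, corrected for transcript length), 12 held a 5p site in their longest annotated 3′UTR, a share of 24.0% against 17.2% of 11765 genes at the same minimum. These 12 were COL1A1, COL4A2, COL4A4, COL4A5, ITGA1, ITGA2, ITGA7, ITGB2, ITGB8, ITGBL1, LAMA3 and LAMC1. In the 3′UTR of the transcript with the longest coding sequence, a choice added after the data were seen, 8 members (16.0%) held one against 12.3% of genes, without COL4A2, ITGA7, ITGB2 and LAMA3. Reference 3p sites (GCAGTGG or the corresponding 7mer-A1) were in 12 members (24.0%) against 36.3% of genes, and in the transcript with the longest coding sequence in 5 members (10.0%) against 27.0% of genes. A site is a match of letters and not a shown target.

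The following 5 sites are shown because they are the 8mers of 2 members and the 7mer-m8 matches of 3 members whose site lies in the longest coding transcript. Each is given 5′ to 3′ on the messenger RNA strand in DNA letters, with the seed match in capitals and 10 bases on either side. COL1A1 (chr17:50183709-50183715, minus strand), COL4A4 (chr2:227004776-227004782, minus strand) and ITGA1 (chr5:52954061-52954067, plus strand) have 7mer-m8 matches in the longest coding transcript. COL4A2 (chr13:110362083-110362090, plus strand) and ITGBL1 (chr13:101718513-101718520, plus strand) have 8mers outside the longest coding transcript, and that of ITGBL1 has a 7mer-m8 elsewhere. Coordinates are GRCh38, from GENCODE 29.
COL1A1: tggtggcggtGGGATGCtcatggatac
COL4A4: ctggaaatctGGGATGCttccttctgg
ITGA1: atgcgcctgtGGGATGCcaaagccatc
COL4A2: gaggctctccGGGATGCAgggaagaaca
ITGBL1: tcaattggaaGGGATGCAgcaagtttag

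Each library listed 18660 to 19070 symbols, and the members together summed to 6609 to 8892 TPM. Of the 8 glial and progenitor markers, VIM, a mesenchymal intermediate filament, was at 4788 to 5910 TPM, CD44 at 708 to 929 TPM and NES, an intermediate filament of neural progenitors, at 90.9 to 133 TPM. The progenitor factors SOX2 (1.75 to 3.29 TPM) and OLIG2 (2.75 to 4.98 TPM) and the mesenchymal glioma marker CHI3L1 (1.91 to 2.91 TPM) were low. Defining astrocyte markers were near or at 0, with GFAP at 0.05 to 0.25 TPM and S100B listed in no library. The 4 endothelial markers summed to 0.5 to 1.14 TPM. The 5 blood markers summed to 7.67 to 9.47 TPM, with 3 of them at a mean of at least 1 TPM and CD3E at 0. The epithelial list summed to 908 to 1348 TPM, carried by KRT8 and KRT18, with CDH1 at 0.09 to 0.17 TPM. Interferon-response genes (15 genes) summed to 984 and 3080 TPM in the control libraries, against 293 and 239 TPM with the 5p duplex and 258 and 268 TPM with the 3p.1 duplex. The control libraries thus differed from one another and from the other 4 in this list, whose part in the comparisons below was not tested. In bulk RNA, fewer cells of a type and less RNA per cell cannot be told apart.

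Collagen messenger RNA in A172 was mostly fibrillar. The 43 collagens summed to 3588 and 5169 TPM in the control libraries, 3415 and 5075 TPM with the 5p duplex, and 3619 and 5221 TPM with the 3p.1 duplex, and the 11 fibrillar chains made up 74.5% of the mean. The 4 highest chains held 73.1% of all collagen TPM. COL5A2, a type V chain that helps start fibrils, stood at 819 and 1172 TPM in the control libraries, 876 and 1155 TPM with the 5p duplex, and 898 and 1198 TPM with the 3p.1 duplex. COL3A1, the only chain of type III collagen, stood at 694 and 1221, 601 and 1137, and 656 and 1239 TPM in the same order. COL1A2, the alpha-2 chain of type I, stood at 782 and 1145, 637 and 1060, and 727 and 1175 TPM. In all 3 genes the groups overlapped and the library numbered 2 was the higher in each group. COL5A1, the type V partner chain, stood at 272 and 346, 275 and 380, and 264 and 335 TPM.

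**Figure D1:**
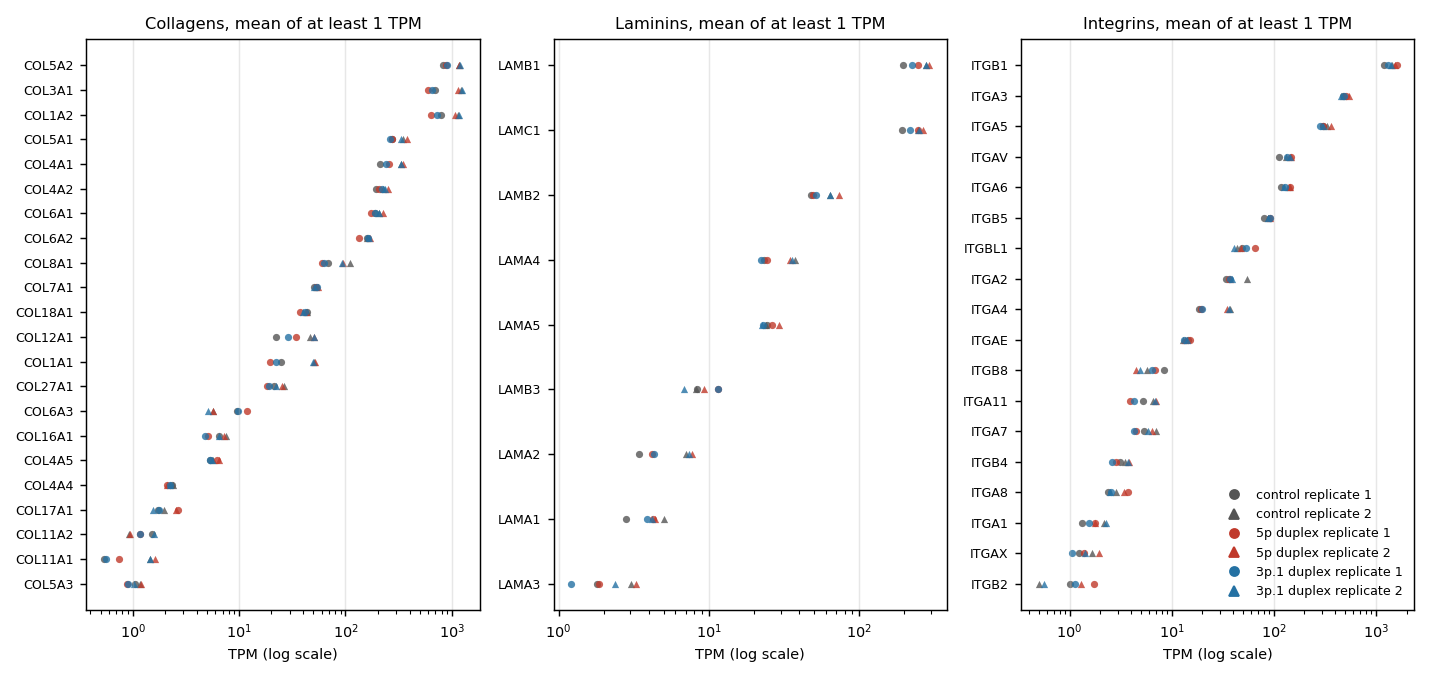
TPM (log scale) of members with a mean of at least 1 TPM, each point 1 library, coloured by group and shaped by replicate number. ITGB1 (mean 1422 TPM), COL5A2, COL3A1 and COL1A2 lie highest, and for many collagens the triangles (replicate 2) lie to the right of the circles (replicate 1).

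Chains that assemble together were not at equal levels. Type I collagen is usually built from 2 alpha-1 chains and 1 alpha-2 chain, but COL1A1 stood at only 24.9 and 50.9 TPM in the control libraries, 19.5 and 51.8 TPM with the 5p duplex, and 22.0 and 49.2 TPM with the 3p.1 duplex. COL1A2 was therefore 20.5 to 33.0 times COL1A1 in TPM over the 6 libraries. In type V, COL5A2 was 3.01 to 3.58 times COL5A1. Type VI collagen, a beaded filament around cells, uses 1 each of 3 chains in its common form. COL6A1 and COL6A2 were close to one another, with a ratio of 1.15 to 1.34 and means of 198 and 159 TPM. The largest of the 3, COL6A3, stood at 9.5 and 5.7 TPM in the control libraries, 11.9 and 5.68 TPM with the 5p duplex, and 9.74 and 5.09 TPM with the 3p.1 duplex, so COL6A1 was 14.6 to 40.4 times higher. These are ratios of messenger RNA levels per length and not of protein chains.

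The basement membrane collagens were led by the common type IV pair. COL4A1 stood at 212 and 334 TPM in the control libraries, 255 and 350 TPM with the 5p duplex, and 242 and 332 TPM with the 3p.1 duplex. COL4A2, which joins 2 COL4A1 chains in the usual trimer, stood at 195 and 226, 206 and 250, and 219 and 236 TPM, a ratio of COL4A1 to COL4A2 of 1.09 to 1.48. The tissue-restricted type IV chains were low: means were 5.78 TPM for COL4A5, 2.24 TPM for COL4A4, 0.26 TPM for COL4A6 and 0.02 TPM for COL4A3. Of the other collagens, COL8A1, a short-chain network collagen, had a mean of 81.4 TPM, COL7A1, the anchoring fibril chain, 52.6 TPM, COL18A1, the source of endostatin, 41.3 TPM, and COL12A1, a fibril-associated collagen, 38.8 TPM. In these 4 genes only COL7A1 and COL18A1 kept to a narrow range, 50.3 to 54.8 TPM and 37.1 to 43.6 TPM.

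**Figure D2:**
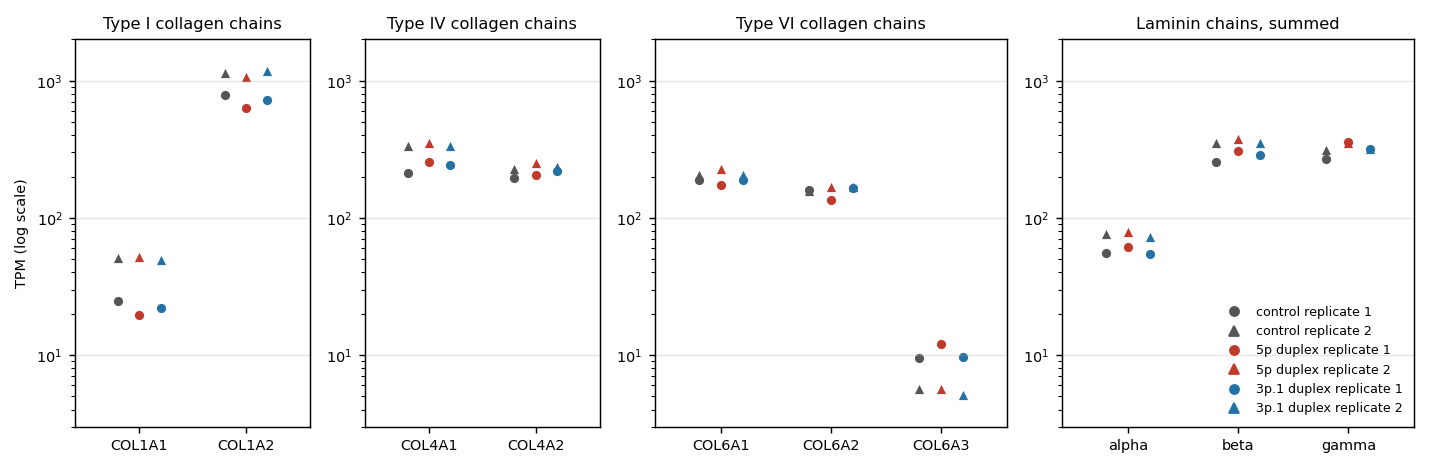
TPM (log scale) of chains that assemble together, each point 1 library, coloured by group and shaped by replicate number. COL1A2 lies 20.5 to 33.0 times above COL1A1, COL6A3 lies far below its partner chains, and summed laminin alpha chains lie below summed beta and gamma chains.

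Among the laminins the shared core chains LAMB1 and LAMC1 held 68.9% of the laminin TPM. LAMB1 stood at 197 and 278 TPM in the control libraries, 245 and 292 TPM with the 5p duplex, and 223 and 278 TPM with the 3p.1 duplex. LAMC1 stood at 193 and 247, 247 and 265, and 218 and 249 TPM, and the ratio of LAMC1 to LAMB1 was 0.887 to 1.01. The 5 alpha chains, which carry the binding sites for cell receptors, summed to a mean of only 66.6 TPM, against 321 TPM for the 4 beta chains and 322 TPM for the 3 gamma chains. LAMA4, typical of vessel and mesenchymal membranes, and LAMA5 were the highest alpha chains, with means of 29.6 and 24.9 TPM. LAMA2, LAMA1 and LAMA3 had means of 5.66, 4.10 and 2.26 TPM. LAMB3, a beta chain of epithelial laminin, had a mean of 9.26 TPM.

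ITGB1, the beta subunit that most alpha subunits of this set pair with, held 51.7% of the integrin TPM. It stood at 1205 and 1449 TPM in the control libraries, 1596 and 1555 TPM with the 5p duplex, and 1325 and 1406 TPM with the 3p.1 duplex. The alpha subunits that can pair with it summed to 1078 to 1288 TPM, which was 0.740 to 0.895 of ITGB1. ITGA3, a laminin receptor subunit, stood at 478 and 481, 516 and 545, and 485 and 453 TPM. ITGA5, the fibronectin receptor subunit, stood at 302 and 332, 301 and 360, and 281 and 305 TPM. Together with ITGAV, which pairs with several beta subunits, these held 86.0% of the integrin TPM. ITGA6, another laminin receptor subunit, stood at 117 and 142, 146 and 143, and 129 and 125 TPM, and ITGB5, a partner of ITGAV, at 80.8 and 88.4, 92.3 and 92.1, and 91.1 and 87.6 TPM. Integrin subunits that bind collagen were lower than those that bind laminin: ITGA1, ITGA2, ITGA10 and ITGA11 summed to a mean of 48.4 TPM, against 632 TPM for ITGA3, ITGA6 and ITGA7. Among these collagen-binding subunits ITGA2 was the highest, with a mean of 40.0 TPM.

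Levels covered a wide range. Of the 80 members, 15 had a mean of at least 100 TPM, 30 of at least 10 TPM and 50 of at least 1 TPM, and 72 were listed in all 6 libraries. The 50 tested members were 22 collagens, 10 laminins and 18 integrins, and 30 members (21 collagens, 2 laminins, 7 integrins) went untested. Just inside the minimum were ITGB2 and COL5A3, both at 1.04 TPM, and COL11A1 at 1.07 TPM, and just outside were ITGAM at 0.953, ITGB6 at 0.935, ITGA10 at 0.928 and COL13A1 at 0.912 TPM. The cartilage chains COL2A1 and COL9A1, with COL19A1 and COL23A1, were listed in 1 library each. The leukocyte subunit ITGAL had at most 0.04 TPM.

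Member genes often lie beside one another. COL4A1 and COL4A2 on chromosome 13 are head to head, as are COL4A3 and COL4A4 on chromosome 2 and COL4A5 and COL4A6 on the X chromosome, yet only the first pair was similar in level, with means of 288 and 222 TPM. COL3A1 and COL5A2, neighbours on chromosome 2 that end toward each other with 19149 bp between them, had means of 925 and 1019 TPM. LAMB1 and LAMB4 on chromosome 7, at 252 and 0.838 TPM, and ITGA1 and ITGA2 on chromosome 5, at 1.82 and 40.0 TPM, were neighbours of very unequal level. In the fibrillar collagens 305 of 649 coding exons (47.0%) were 54 bases long, 1 of the lengths in multiples of 9 bases that code for whole Gly-X-Y triplets. The share was 4.04% in type IV collagens, and no exon of that length was found among 519 laminin or 618 integrin coding exons. Multiples of 9 bases made up 82.9% of coding exons in fibrillar and 46.5% in type IV collagens, against 14.8% in laminins and 13.3% in integrins, which have no such triplet repeat.

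The COL4A1 and COL4A2 promoter is shown because it serves both directions and both genes are among the highest members. The start sites are 127 bp apart, and the RefSeq windows of 250 bases before to 50 after each start share 226 bases. The COL4A2 window (chr13:110307034-110307333, plus strand, GRCh38.p14) has a CCAAT box (CCAAT) and a GC box (GGGCGG) in capitals, both searched on either strand.
COL4A2 promoter: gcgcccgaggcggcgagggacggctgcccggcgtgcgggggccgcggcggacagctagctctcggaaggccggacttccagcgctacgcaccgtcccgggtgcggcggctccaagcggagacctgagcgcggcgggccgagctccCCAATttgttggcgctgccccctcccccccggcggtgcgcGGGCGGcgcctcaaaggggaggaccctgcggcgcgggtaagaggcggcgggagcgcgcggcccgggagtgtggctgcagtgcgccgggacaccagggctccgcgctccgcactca

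A GC box was in 69.4% of 49 windows of tested members and 45.0% of 35116 windows in all, a CCAAT box in 22.4% and 34.6%, and TATAAA in 12.2% and 11.5%. These are shares of windows and not of members. Some members, such as COL11A2, ITGB5 and LAMB3, had several windows, and others had none, among them COL5A2, COL3A1 and COL1A2. A match describes letters and not a binding site.

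With the 5p duplex no member passed the test against the control. Levels were compared as log2(TPM + 1), a scale that understates the change of low genes, with limma across all 13400 genes at the minimum and a Benjamini-Hochberg adjusted p under 0.05. Against a background of 0.463% of genes called, 0 of 50 members were called. An unadjusted p under 0.05 (limma) was found for 2 members (4.0%), against 9.16% of genes. The lowest adjusted p among members was 0.473 (limma), for ITGAV. The median log2 difference was 0.07 over the members and -0.03 over all genes tested, and 33 of 50 members (66.0%) had a positive difference against 42.7% of genes. By class, 9 of 10 laminins (median 0.18), 13 of 18 integrins (median 0.09) and 11 of 22 collagens (median -0.02) were positive. In 15 members (30.0%) the libraries of the 2 groups did not overlap, 13 higher and 2 lower, a share near that of all genes (34.8%).

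ITGAV, the alpha subunit of vitronectin receptors, stood at 113 and 131 TPM in the control libraries and 148 and 148 TPM with the 5p duplex. Its log2 difference was 0.27 (95% interval 0.03 to 0.52, adjusted p 0.473, limma). For ITGB1, whose 5p duplex libraries also lay above both controls, the log2 difference was 0.25 (-0.02 to 0.53). LAMB3 stood at 8.36 and 8.17 TPM in the control libraries and 11.5 and 9.3 TPM with the 5p duplex, a log2 difference of 0.29 (-0.26 to 0.85). COL12A1 stood at 22.2 and 46.6 TPM in the control libraries and 34.2 and 50.3 TPM with the 5p duplex, and its log2 difference of 0.36 had the wide interval of -0.62 to 1.33. ITGA8, a partner of ITGB1 chosen for mention after its values were seen, stood at 2.4 and 2.84 TPM in the control libraries and 3.73 and 3.43 TPM with the 5p duplex, a log2 difference of 0.34 (0.01 to 0.68, adjusted p 0.538, limma). At the other end, ITGB8 had a log2 difference of -0.26 (-0.86 to 0.34), ITGA2 of -0.21 (-0.72 to 0.30) and COL8A1 of -0.21 (-0.96 to 0.54). COL8A1 stood at 68.7 and 110 TPM in the control libraries and 60.0 and 93.8 TPM with the 5p duplex. The median half-width of the 95% intervals over the members was 0.49 in this fit, and 0.23 with the replicate number as a block, where 0 members were called.

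**Figure D3:**
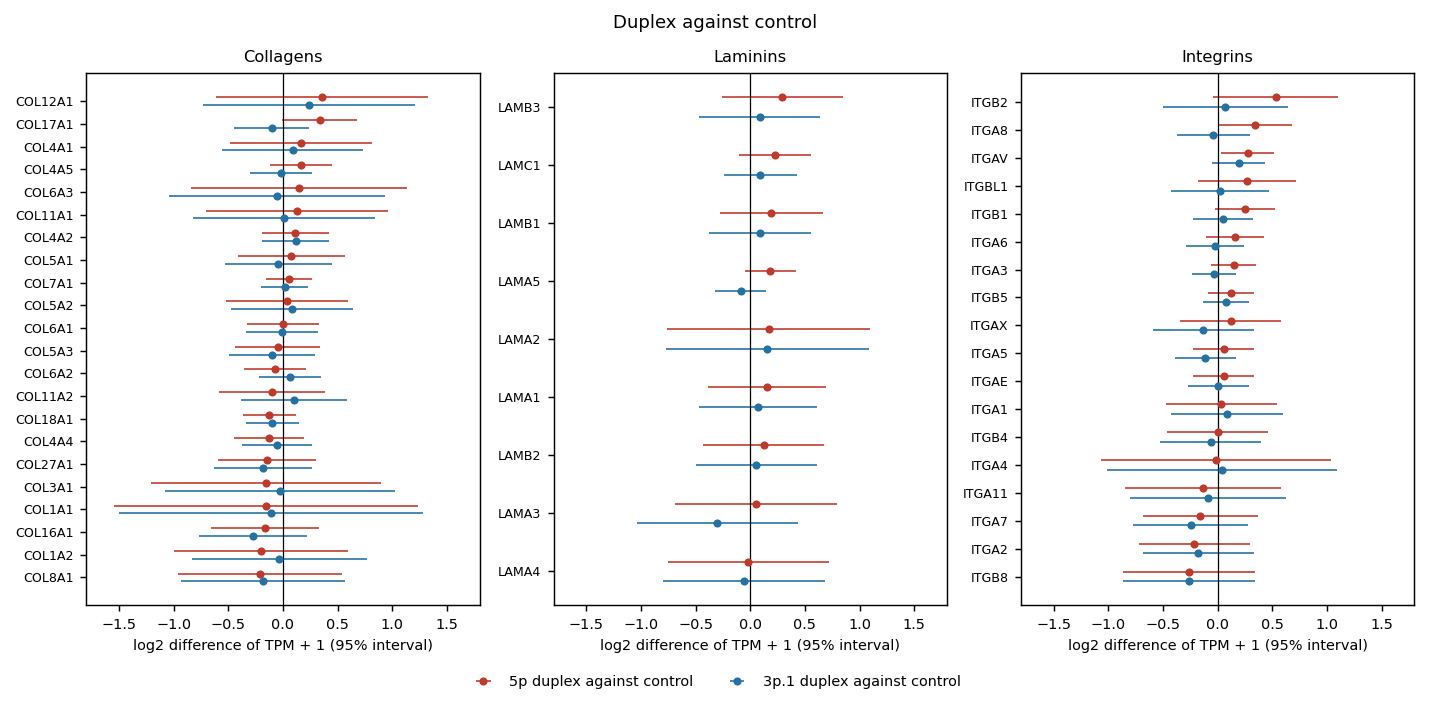
Differences of each duplex from the control in log2(TPM + 1) for tested members, as points with 95% intervals from limma. Nearly all intervals cross 0, the exceptions being ITGAV and ITGA8 with the 5p duplex, neither of which passed the adjusted test, and COL1A1, COL3A1 and ITGA4 have among the widest intervals.

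With the 3p.1 duplex 0 of 50 members were called against the control, with 0.0149% of all genes called. An unadjusted p under 0.05 (limma) was found for 0 members, against 6.86% of genes. The median log2 difference was -0.02 over members and -0.03 over all genes, and 23 of 50 members (46.0%) had a positive difference against 41.0% of genes. By class, 7 of 10 laminins (median 0.08), 8 of 18 integrins (median -0.03) and 8 of 22 collagens (median -0.03) were positive. The groups did not overlap in 6 members (12.0%), against 36.3% of genes. The larger positive differences among members of at least 5 TPM included 0.24 for COL12A1 (-0.73 to 1.21) and 0.19 for ITGAV (-0.05 to 0.44), the last at 134 and 145 TPM with this duplex. The largest negative ones were -0.27 for COL16A1, a fibril-associated collagen (-0.76 to 0.22), -0.26 for ITGB8 (-0.86 to 0.34) and -0.25 for ITGA7 (-0.77 to 0.28). COL16A1 stood at 6.46 and 7.46 TPM in the control libraries and 4.75 and 6.54 TPM with the 3p.1 duplex, so its groups overlapped. Both duplexes were compared with the same control libraries, so their differences from control are not independent.

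Between the duplexes 0 of 50 members were called, with 0.433% of all genes called. An unadjusted p under 0.05 (limma) was found for 3 members (6.0%), against 9.34% of genes. All 10 laminins and 35 of 50 members (70.0%) had a positive difference of 5p duplex from 3p.1 duplex, against 51.3% of genes, with a median of 0.07 over members and 0.01 over all genes. The groups did not overlap in 12 members (24.0%), against 40.4% of genes. LAMA5, a widespread basement membrane chain, stood at 26.4 and 29.1 TPM with the 5p duplex and 23.0 and 22.6 TPM with the 3p.1 duplex, a log2 difference of 0.27 (0.04 to 0.51, adjusted p 0.455, limma). ITGBL1 had a difference of 0.25 (-0.20 to 0.70). COL17A1, the hemidesmosome collagen, picked after its values were seen, stood at 2.65 and 2.56 TPM with the 5p duplex, 1.76 and 1.56 TPM with the 3p.1 duplex and 1.74 and 1.98 TPM in the controls. Its log2 difference between duplexes was 0.44 (0.10 to 0.78, adjusted p 0.393, limma). The largest negative differences among members of at least 5 TPM were -0.17 for COL1A2 (-0.97 to 0.63), -0.13 for COL6A2 (-0.42 to 0.15) and -0.13 for COL3A1 (-1.18 to 0.93).

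None of the 12 members with a 5p site was called with the 5p duplex. Their median log2 difference from control was 0.04, with 5 of 12 negative, against 0.10 and 12 of 38 for members without a site. Of all genes tested, only 42.7% had a positive difference with the 5p duplex. The lowest adjusted p of members with a site was 0.585 (limma). COL4A4, whose 5p duplex libraries lay below the other 4, stood at 2.36 and 2.4 TPM in the control libraries, 2.1 and 2.09 TPM with the 5p duplex and 2.26 and 2.25 TPM with the 3p.1 duplex, a log2 difference of -0.13 for the 5p duplex (-0.45 to 0.19). ITGB8, which pairs with ITGAV, stood at 8.34 and 5.71, 6.94 and 4.49, and 6.44 and 4.86 TPM, and all 3 groups overlapped. COL1A1 (log2 difference -0.16), ITGA7 (-0.16) and ITGA2 (-0.21) were the other negative ones. ITGA7 stood at 5.33 and 7.04, 4.5 and 6.42, and 4.3 and 5.81 TPM, and ITGA2 at 33.8 and 55.3, 36.8 and 37.6, and 37.6 and 38.8 TPM, where only the second control library stood apart.

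The other site members had positive differences that did not pass. ITGB2, the leukocyte beta subunit, stood at 1.01 and 0.5 TPM in the control libraries, 1.73 and 1.3 TPM with the 5p duplex and 1.13 and 0.56 TPM with the 3p.1 duplex, a log2 difference of 0.53 for the 5p duplex (-0.04 to 1.10). Its group means were 0.755, 1.515 and 0.845 TPM in the same order. ITGB2 thus reached the minimum of 1 TPM only through the 5p duplex, so the filter itself favoured a positive difference. ITGBL1 stood at 48.5 and 44.1, 65.0 and 48.1, and 53.9 and 40.7 TPM, with a log2 difference of 0.27 (-0.18 to 0.72). COL4A5 stood at 5.35 and 5.73, 6.21 and 6.43, and 5.32 and 5.61 TPM (0.16), with the 5p duplex libraries above the other 4. LAMC1 had a log2 difference of 0.23 and COL4A2 of 0.11. ITGA1 stood at 1.33 and 2.18, 1.79 and 1.78, and 1.55 and 2.27 TPM (0.03), and LAMA3 at 1.8 and 3.04, 1.85 and 3.26, and 1.22 and 2.36 TPM (0.05). Members with a reference 3p site had a median log2 difference of -0.06 with the 3p.1 duplex, 8 of 12 negative, against -0.00 and 19 of 38 without one. Of all genes tested, only 41.0% had a positive difference with the 3p.1 duplex.

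More members were called between the libraries numbered 1 and 2 than in any treatment comparison. This comparison was added after the data were seen, the labels tie the number to no batch, day or culture, and what it stands for is not given in the sources used here. Its counts come from an unlike test, since the treatment fits compared fewer libraries and left the number difference in their spread. Over all genes, too, more were called by number, 1259 against 62, 2 and 58 in the treatment comparisons. In a limma fit with the number as a term beside the group, 19 of 50 members were called, 17 higher and 2 lower in the libraries numbered 2, against 9.4% of all genes called (5.81% higher, 3.58% lower). Without gene filtering 0 members were called, with 6 genes called in all and 4443 at an unadjusted p under 0.05 (limma), and with either 3p.1 duplex library left out 10 were (20.0%), against 1.61% and 1.82% of genes. The 9 calls lost without either of those libraries were COL5A1, COL11A1, LAMA3, LAMA4, LAMB1, LAMB2, ITGA7, ITGA11 and ITGB8. In 30 members the library numbered 2 was the higher in all 3 groups, against 29.0% of genes, and in 6 the lower in all 3, against 22.4%.

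Collagens gave 10 of the 19 calls, 45.5% of the 22 tested, against 9.4% of all genes. COL3A1 was higher in the libraries numbered 2 by 0.81, 0.92 and 0.92 on the log2 scale in control, 5p duplex and 3p.1 duplex, 0.88 overall (SE 0.05, adjusted p 0.00248, limma). The levels of COL1A1 and COL1A2 given above moved the same way, with log2 differences of 1.16 (adjusted p 0.00590, limma) and 0.66 (adjusted p 0.00829, limma). COL8A1 (0.62), COL5A2 (0.44), COL4A1 (0.52), COL12A1 (0.79), COL5A1 (0.39) and COL11A1 (0.64) were also called higher, making 9 collagens. Of these, COL11A1 averaged 0.613 TPM in the libraries numbered 1 and 1.52 TPM in those numbered 2. It reached the minimum of 1 TPM only through the latter, so the filter itself favoured a higher value there. COL6A3 was the 1 collagen called lower, by -0.81 (adjusted p 0.0124, limma), while COL6A1 (0.20) and COL6A2 (0.11) were not called. The ratio of COL6A1 to COL6A3 averaged 18.0 in the libraries numbered 1 and 38.7 in those numbered 2, and that of COL1A2 to COL1A1 averaged 32.4 and 22.3. COL4A2, which shares its promoter with COL4A1, had a difference of 0.20 and an adjusted p of 0.0773 (limma).

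Of the laminins, LAMA4 (0.60), LAMA2 (0.75), LAMA3 (0.57), LAMB2 (0.43) and LAMB1 (0.35) were called higher in the libraries numbered 2. LAMA2, the muscle and nerve laminin chain, stood at 3.42 and 7.05, 4.19 and 7.68, and 4.31 and 7.33 TPM, with no overlap between the numbers. LAMB2, a chain of synaptic and vessel membranes, stood at 47.6 and 64.3, 49.5 and 73.5, and 52.0 and 63.8 TPM. LAMB3 had a difference of the opposite sign, -0.33 (adjusted p 0.156, limma).

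Of 18 integrins, 4 were called (22.2%, against 9.4% of all genes). ITGA4, which binds fibronectin and VCAM1, stood at 18.5 and 36.9, 19.2 and 34.8, and 19.8 and 36.6 TPM, a log2 difference of 0.88 (adjusted p 0.00617, limma). The collagen receptor subunit ITGA11 (0.53) and the laminin receptor subunit ITGA7 (0.38) were also higher and ITGB8 (-0.45) was lower. The abundant ITGB1, ITGA3 and ITGAV had differences of 0.10, -0.00 and 0.11 and were not called.

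**Figure D4:**
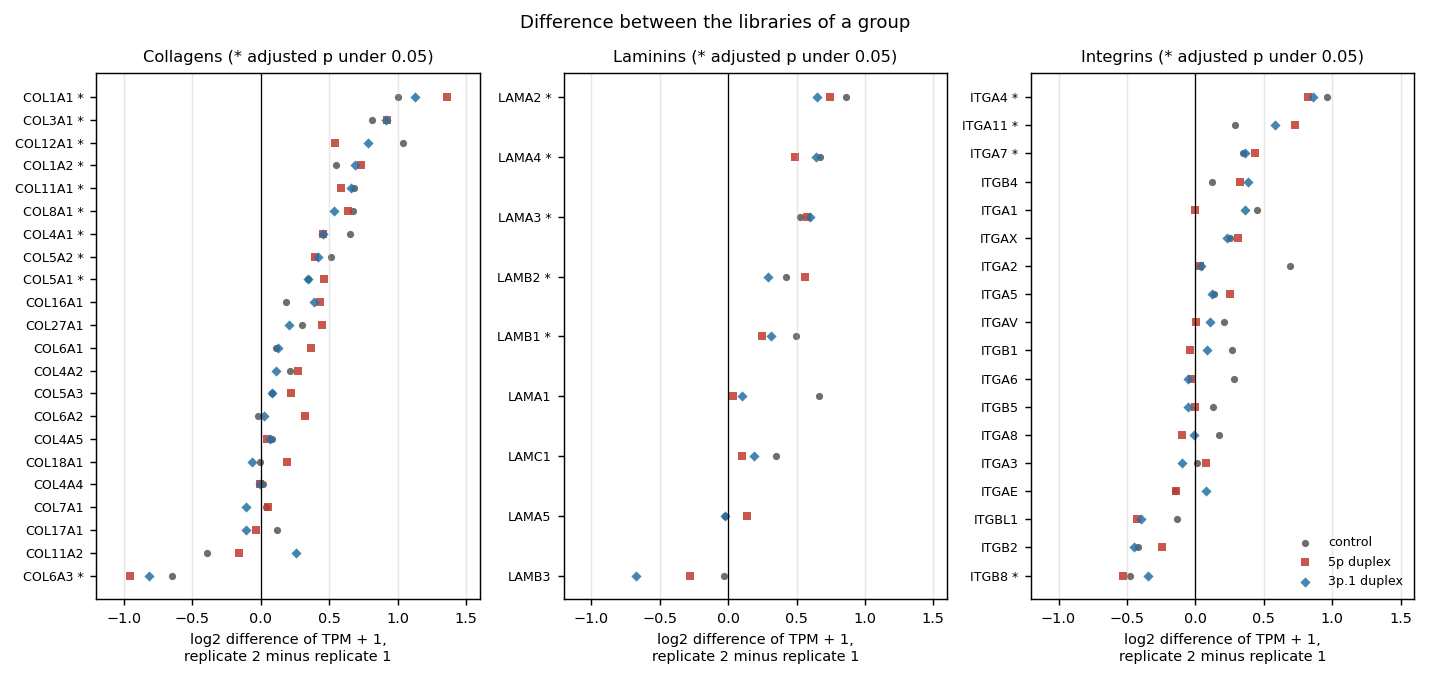
Difference between replicate 2 and replicate 1 in log2(TPM + 1) for tested members, 1 point per group, with an asterisk where the fit over groups gave an adjusted p under 0.05. The 3 points of COL3A1, COL1A1, ITGA4 and LAMA2 all lie above 0.6, and those of COL6A3 all lie below -0.6.

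Transcript length moved with this difference. Tested genes with an annotated coding transcript were split by transcript length into 5 equal groups, and 35 of the 50 members fell in the longest (median 6970 bases). The median difference by number over all genes of that group was 0.07, against -0.02 in the shortest group (median 1209 bases). Over the 50 members it was 0.21. The interferon list moved with the number in the controls (984 and 3080 TPM) and not in the duplex libraries. In a fit of the 4 duplex libraries alone 25 of 50 members were called, among them all 19, against 15.3% of genes. These libraries were also in the main fit, so the calls are not independent of the main ones. The parts of the interferon list and of transcript length in the member differences were not tested.

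No partner gene outside the interferon list was called by treatment. Of 25 tested genes that fold or crosslink collagen, 0 were called in any treatment comparison, and 7 (28.0%) were higher in the libraries numbered 2, against 9.4% of all genes called by number. Among those, P4HA1, a prolyl hydroxylase subunit, stood at 95.6 and 162, 107 and 149, and 105 and 156 TPM (0.60), and LOX, a crosslinking oxidase, at 186 and 311, 205 and 299, and 208 and 276 TPM (0.56). Of 16 tested matrix partners, 0 were called by treatment, and 8 were higher and 1 lower by number (56.2%). SPARC, a collagen-binding protein, stood at 6640 and 10284, 6457 and 10082, and 6240 and 9334 TPM (0.62), and LUM, a fibril proteoglycan, at 2.95 and 9.26, 2.86 and 8.94, and 2.7 and 8.93 TPM (1.39).

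The adhesion machinery inside the cell (24 genes tested), the non-integrin receptors (12), procollagen processing (3) and matrix proteases and inhibitors (14) had 0 called by treatment. By number, 1 higher and 1 lower were called in each of the first 2 lists, a share of 8.33%, near that of all genes, in the adhesion list and 16.7% in the receptor list. In the third list 1 was called higher, and in the last 2 were higher and 1 lower (21.4%). The receptor tyrosine kinase DDR1, which binds collagen, came nearest to a treatment call. It stood at 39.9 and 33.6 TPM in the control libraries, 21.4 and 21.2 TPM with the 5p duplex and 29.1 and 29.8 TPM with the 3p.1 duplex, a log2 difference of -0.75 for the 5p duplex (SE 0.11, adjusted p 0.0636, limma). ACTN4, an actin crosslinker, stood at 491 and 513, 346 and 391, and 537 and 534 TPM, with a difference of -0.45 for the 5p duplex (adjusted p 0.139, limma). FBN2, a microfibril protein, stood at 15.0 and 19.7, 26.7 and 25.1, and 18.8 and 20.9 TPM, with a difference of 0.56 (adjusted p 0.244, limma). Of the 15 interferon genes 4 were lower with the 5p duplex, IRF9 among them (-1.60, adjusted p 0.0326, limma), and 0 were called with the 3p.1 duplex, between the duplexes or by number. The median log2 difference of the list was -3.01 with the 5p duplex and -3.07 with the 3p.1 duplex, where IRF9 had a difference of -1.50 (adjusted p 0.129, limma).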

How the data were processed

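Polyadenylated RNA of A172 cells was sequenced in 6 libraries, grouped by the labels. The authors deposited TPM per gene symbol for each library. RSEM and GRCh38 are named per the submitters' processing notes, and the sources used here give no version, aligner or annotation. TPM keeps no depth, so sequencing depth is unknown and no counting interval is given. An unlisted symbol was taken as 0.

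With limma 3.58.1 (R 4.3.3), group means of log2(TPM + 1) over the 6 libraries were estimated for the 13400 genes whose mean reached 1 TPM (variance trend, 3 residual and 3.38 prior degrees of freedom). Adjusted p-values are two-sided and Benjamini-Hochberg over all of these, called under 0.05. An exact permutation test cannot go below p = 0.333 with 2 libraries per group. The code was tested on simulated data. Alternatives covered the pseudocount, filters, variance trend, groups fitted, scaling, the replicate number and each library left out.

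All 80 members matched GENCODE 29 (GRCh38). Values per library are given for the highest members of each class, the 3 largest differences in each direction per comparison at a mean of at least 5 TPM, members with a 5p site, and up to 4 genes per partner list by adjusted p. ITGA8, COL17A1 and the genes in the comparison of library numbers were chosen after their values were seen. A member and a marker gene were fitted and counted with the rest but are not reported here by name. The members and lists were chosen with earlier results of these data known.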

Additional observations from a re-analysis of the deposited data

How the results depend on the processing

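No member was called in any of the 3 treatment comparisons under the 13 alternatives run for each, and the lowest adjusted p for a member reported by name was 0.124 (ITGB2, 5p duplex against control, replicate block), 0.258 (ITGA2, 3p.1 duplex against control, without control replicate 1) and 0.146 (COL17A1, between duplexes, replicate block), all limma. ITGB2 is the gene that reached the minimum only through the 5p duplex. The replicate number as a block called 0 members in each comparison (14, 6 and 10 at an unadjusted p under 0.05, limma, shares of 28.0%, 12.0% and 20.0% against 18.4%, 15.5% and 18.7% of all genes). It raised the count over all genes from 62 to 367 with the 5p duplex, from 2 to 30 with the 3p.1 duplex and from 58 to 278 between duplexes. The labels give the libraries only a shared number: replicate differences correlated between groups at 0.265 to 0.383 over genes and 0.806 to 0.914 over the 50 members, a description over genes and not over independent samples.

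The count of members that differed by library number was 19, from 10 to 24 with 1 library left out, 0 without a filter, and 18 to 25 in the other settings. Over all genes the count was 1259, from 216 to 1855 with 1 library left out, 6 without a filter, and 897 to 2042 in the other settings. Log2 differences that changed sign, all uncalled in either case, did so only where 1 library was left out, and their ranges over the libraries left out follow. With the 5p duplex against control they were -0.16 to 0.87 for COL12A1, -0.84 to 0.53 for COL1A1, -0.026 to 0.25 for COL4A2, -0.55 to 0.13 for COL8A1, -0.19 to 0.26 for ITGA1, -0.56 to 0.13 for ITGA2, -0.38 to 0.057 for ITGA7, -0.53 to 0.0043 for ITGB8 and -0.24 to 0.34 for LAMA3. With the 3p.1 duplex the range was -0.28 to 0.76 for COL12A1. Between duplexes they were -0.54 to 0.20 for COL1A2, -0.59 to 0.33 for COL3A1 and -0.30 to 0.025 for COL6A2. The cause was not tested. Scaling each library by its median ratio moved 3 of 54 family means by more than their spread, to 323 TPM for laminin gamma chains with the 3p.1 duplex, 43.0 TPM for multiplexins in the controls and 2.70 TPM for transmembrane collagens with the 3p.1 duplex.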
